A study of Mus musculus with 7 samples.

Results

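The genes described are 9 feedback inhibitors of MAP kinase signalling, most of which act on the growth factor pathway through the kinase ERK: the dual-specificity phosphatase genes Dusp1, Dusp4, Dusp5, Dusp6 and Dusp8, the Sprouty genes Spry2 and Spry4, and the Spred genes Spred1 and Spred2. They were taken by symbol from the deposited gene count table, 9 of 54532 gene IDs, and all 9 passed the filter on low counts that left 17078 genes for testing. No symbol among them had more than 1 row. Retinas, the light-sensing tissue of the eye, were sampled on day 28 from mice infused with angiotensin II (Ang II, a pressor peptide hormone; 4 libraries) or with saline (3 libraries). For the mice of both groups the series text names the genotype ApoE-/-, but the labels of all 7 samples say WT. Apoe had 150 to 406 counts per library, and which genotype this level goes with was not tested. Dose, age and sex, and the number of animals behind a library, are not given in the sources used here, so the spread between libraries may be in part technical.

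Growth factor receptors activate Ras, and Ras starts a kinase relay of RAF, MEK and ERK. Active ERK turns on genes that shut the relay off again. Dual-specificity phosphatases remove the activating phosphates from ERK and related kinases, whereas Sprouty and Spred proteins act upstream, between the receptor and RAF. The transcripts of several of them are therefore widely used as readouts of recent ERK activity, and in the retina the pathway is known for its part in Müller glia and in neuronal survival.

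Sequenced depth was 14655431 to 17563493 counts per library. Between-library chi-square per degree of freedom was 9.55 to 24.1 for all pairs, so that no 2 libraries agreed within sampling noise. The tissue label held in that rod markers, led by genes of the visual cascade, took 61968 to 81343 CPM (counts scaled to a common library total) in every library. Ang II replicate 3 stood apart in Gfap, a gliosis gene, with 79.8 CPM against 6.84 to 9.60 CPM elsewhere, and it also held most skeletal muscle marker RNA (291 CPM in sum, at most 24.7 elsewhere). Lens markers summed to 3739 CPM in Ang II replicate 2 and to between 3.26 and 716 CPM in the other 6 libraries. The scaling is by the trimmed mean of M-values (TMM).

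Start regions of the members were read from RefSeq (GRCm38.p6, the assembly of mm10), which matched 7 of the 9 symbols. Each window spans 300 bases, from 250 before the transcription start to 50 after. They are shown for Dusp1, Dusp5 and Dusp8. Of the 7 members read, these held the full-length copies of 2 elements by which stimulus-induced genes are known to be switched on. Capitals mark the cyclic AMP response element TGACGTCA and its shorter form TGACG, which the full element contains on each strand, and the CArG box, the element bound by serum response factor.
Dusp1 (chr17:26508423-26508722, minus strand): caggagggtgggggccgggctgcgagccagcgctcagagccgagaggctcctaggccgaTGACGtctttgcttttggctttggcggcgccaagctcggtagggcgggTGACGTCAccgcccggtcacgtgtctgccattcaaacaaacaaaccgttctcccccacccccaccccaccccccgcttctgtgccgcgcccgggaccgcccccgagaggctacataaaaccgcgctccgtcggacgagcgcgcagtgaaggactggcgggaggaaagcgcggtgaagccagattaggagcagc
Dusp5 (chr19:53528895-53529194, plus strand): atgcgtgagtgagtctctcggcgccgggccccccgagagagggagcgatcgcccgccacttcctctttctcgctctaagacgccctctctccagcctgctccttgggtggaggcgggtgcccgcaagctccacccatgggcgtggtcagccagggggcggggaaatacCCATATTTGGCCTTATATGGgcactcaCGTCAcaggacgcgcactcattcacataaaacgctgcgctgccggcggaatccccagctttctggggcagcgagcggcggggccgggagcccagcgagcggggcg
Dusp8 (chr7:142095235-142095534, minus strand): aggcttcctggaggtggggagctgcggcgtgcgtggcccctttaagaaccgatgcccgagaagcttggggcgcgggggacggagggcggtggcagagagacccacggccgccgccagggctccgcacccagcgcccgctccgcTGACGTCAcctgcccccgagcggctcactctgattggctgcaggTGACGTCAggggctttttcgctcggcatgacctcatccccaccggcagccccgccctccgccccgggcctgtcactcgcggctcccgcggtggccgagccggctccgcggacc
Dusp8 held 2 full response elements, with first bases at -107 and -63 from the RefSeq start, and Dusp1 held 1, at -143. The Dusp8 window lies wholly inside the gene as counted, which on the minus strand begins at 142095843. The 2 sources thus place the start of Dusp8 differently. Among 32817 RefSeq start windows, 1.79% had TGACGTCA. Dusp5 held 2 CArG boxes that adjoin each other, at -82 and -72, an element present in 1.63% of the windows. The shorter TGACG was in 4 of the 7 members (Dusp1, Dusp5, Dusp8 and Spred2) and in 20.8% of all windows, both strands searched. TGANTCA (AP-1), CCGGAAG (ETS factors) and GCGNGGGCG (EGR factors) were in 0 of the 7 members' windows and in 7.81%, 8.86% and 5.56% of all windows. These are matches of letters in a window, not measured binding.

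Per length, the 9 transcripts covered a wide range. Dusp8 led with 53.4 ± 1.66 RPKM (reads per kilobase of gene, scaled as CPM; mean ± SD over 7 libraries). Dusp4 (21.1 ± 5.65), Spry2 (20.0 ± 2.27) and Spred1 (19.8 ± 4.23 RPKM) formed the next step and lay within each other's spread. Dusp1 (10.6 ± 1.98) and Dusp5 (10.4 ± 2.26 RPKM) followed and did not differ beyond their spread, and neither did Spred2 (6.78 ± 1.48) and Dusp6 (5.84 ± 1.87 RPKM). Spry4 was lowest, at 2.53 ± 0.626 RPKM. Among relatives that are not members, Dusp7 was at 33.2, Dusp26 at 31.4 and Dusp28 at 23.5 RPKM, above all members but Dusp8. Spry1 was at 2.92 RPKM, and the phosphatase genes Dusp2 and Dusp9 were close to the limit of detection, with 0 to 8 and 0 to 3 counts per library.

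**Figure D1:**
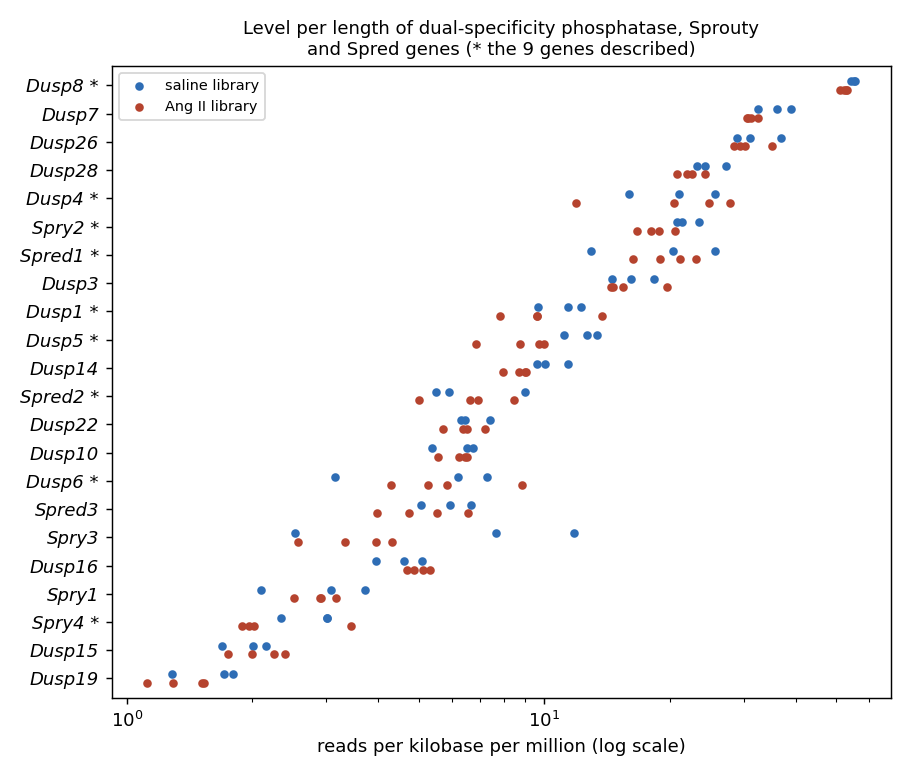
Level per length (RPKM, log axis) of the phosphatase, Sprouty and Spred genes that passed the filter, 1 point per library, ordered by their mean over 7 libraries. Dusp8 stands at the top and Spry4 near the bottom of the family, and the points of Dusp4 and Dusp6 scatter more than those of Dusp8.

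The members' values in the 2 groups follow. The 9 genes were selected on symbol with the Ang II over saline fold changes of these libraries already known, so their differences are a description and carry no test. With edgeR, 0 of 9 members passed an adjusted p of 0.05 (0% of all 17078 tested genes did), and 2 of 9, Dusp5 and Spry2, had an unadjusted p under 0.05 (4.62% of all tested genes). DESeq2 called 0 of 9 (0.213% of all genes it tested) and limma-voom with quality weights called 1 of 9, Dusp5 (0.831%). Of the 9 log2 fold changes, Ang II over saline, 6 were below 0, against 51.1% of all tested genes, and their median was -0.07 against 0.00 over all tested genes. That count ran from 5 to 9 when each library was left out in turn, the 9 being reached without Ang II replicate 4. In 3 of 9 members, Dusp5, Dusp8 and Spry2, every Ang II library lay below every saline library, as 2.73% of all tested genes did, and in 0 of 9 the reverse held (3.18%; 5.91% in either direction). With library size alone as the scaling, only Dusp5 of the members kept its groups apart, where 1.31% of all tested genes lay wholly lower and 4.99% wholly higher.

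**Figure D2:**
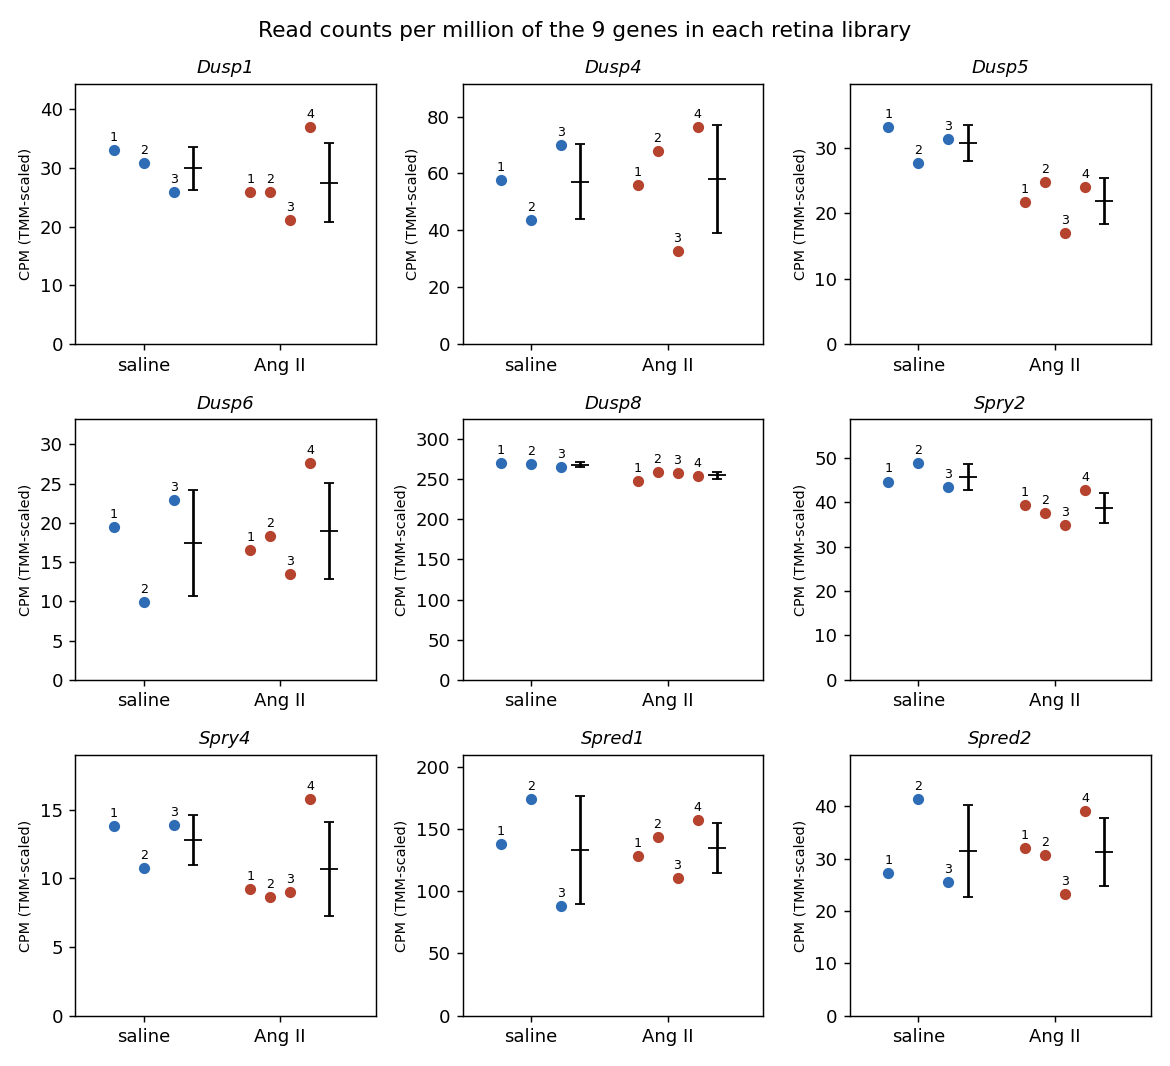
Scaled CPM of the 9 genes in each library (points, numbered by replicate) with mean ± SD per group (black); each panel has its own axis from 0. The groups are apart in Dusp5, Dusp8 and Spry2 and overlap in the other 6.

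Dusp5 (ENSMUSG00000034765, chromosome 19, 53529109 to 53542431, plus strand, mm10) encodes a nuclear phosphatase that is selective for ERK. Ang II replicates 1 to 4 held 21.7, 24.7, 16.9 and 24.0 CPM, whereas saline replicates 1 to 3 held 33.1, 27.6 and 31.4 CPM. The lowest saline library thus lay above the highest Ang II library. Mean levels were 21.8 ± 3.50 CPM (SD, n = 4) with Ang II against 30.7 ± 2.82 CPM (SD, n = 3). The log2 fold change came to -0.49 ± 0.14 (SE). Across all 15 alternative settings the value ranged from -0.56 to -0.38, the latter without Ang II replicate 3, which had the lowest level. GENCODE M21 places an antisense gene across Dusp5, and the library protocol in the labels has no step that marks the strand, so reads of the 2 cannot be told apart. In its start window above, Dusp5 held the paired CArG boxes.

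Dusp8 (ENSMUSG00000037887, chromosome 7, 142079490 to 142095843, minus strand) encodes a phosphatase that acts mainly on the stress kinases JNK and p38. It had 248, 259, 258 and 254 CPM in the Ang II libraries and 270.2, 269 and 265 CPM in the saline libraries. The groups did not overlap, but the gap was narrow: the means were 255 ± 4.76 CPM (SD, n = 4) and 268 ± 2.91 CPM (SD, n = 3), and the log2 fold change was -0.07 ± 0.08 (SE). With library size as the scaling it was -0.03. A non-coding gene on the other strand, Gm32786, overlaps Dusp8 in the annotation and had 78 counts over all 7 libraries, against 3835 to 4374 per library for Dusp8. Dusp8 was also the steadiest member, with a coefficient of variation of 3.10% over the 7 libraries. The median of the 335 genes of like level was 8.48%, and counting alone gives 1.54%.

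Dusp1 (ENSMUSG00000024190, chromosome 17, 26505590 to 26508519, minus strand) is an early response gene, and its nuclear product acts on the stress kinases as well as on ERK. Its levels were 25.9, 25.8, 21.2 and 37.0 CPM in Ang II and 33.0, 30.8 and 26.0 CPM in saline. Ang II replicate 4 was highest of all 7 and the other 3 Ang II libraries were below every saline library, so that the groups overlapped through that library alone. The log2 fold change was -0.12 ± 0.17 (SE), and leaving out 1 library at a time moved it between -0.30 (without Ang II replicate 4) and -0.01 (without Ang II replicate 3). It was -0.04 without saline replicate 1. When the mean level of pigment epithelium markers, a neighbouring tissue, entered the fit as a covariate, its sign turned, to 0.21.

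Dusp4 (ENSMUSG00000031530, chromosome 8, 34807297 to 34819894, plus strand) encodes a nuclear phosphatase induced by ERK. It was at 56.0, 67.8, 32.6 and 76.3 CPM in Ang II and 57.7, 43.6 and 70.1 CPM in saline. Dusp6 (ENSMUSG00000019960, chromosome 10, 99263231 to 99267489, plus strand) encodes the cytoplasmic phosphatase most specific for ERK, and its transcript is a common readout of FGF receptor signalling. It was at 16.5, 18.3, 13.5 and 27.6 CPM in Ang II and 19.5, 9.88 and 22.9 CPM in saline. Both genes were low in Ang II replicate 3 and saline replicate 2 and highest in Ang II replicate 4, and in both the groups overlapped widely. The log2 fold change was 0.02 ± 0.32 (SE) for Dusp4 and 0.12 ± 0.33 for Dusp6. In each, 5 of the 15 alternative settings turned the sign, and without saline replicate 2 the values were -0.14 and -0.16. Without Ang II replicate 3 they were 0.23 and 0.26. Dusp6 varied most of all members, by 2.80 times between its lowest and highest library. Its coefficient of variation was 32.1%, against 12.3% for the median gene of like level and 5.79% from counting alone.

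Spry2 (ENSMUSG00000022114, chromosome 14, 105891947 to 105896819, minus strand) encodes a Sprouty protein that holds back Ras activation by growth factor receptors. It was at 39.4, 37.6, 34.8 and 42.8 CPM in Ang II and 44.7, 48.9 and 43.5 CPM in saline. The highest Ang II library lay just under the lowest saline library. Mean levels were 38.6 ± 3.35 CPM (SD, n = 4) with Ang II against 45.7 ± 2.84 CPM (SD, n = 3), and the log2 fold change was -0.24 ± 0.10 (SE). It stayed below 0 in all 15 alternatives, and adding the pigment epithelium covariate gave -0.11.

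Spry4 (ENSMUSG00000024427, chromosome 18, 38586268 to 38601268, minus strand), an ERK-induced Sprouty gene like Spry2, was at 9.24, 8.68, 8.98 and 15.8 CPM in Ang II and 13.8, 10.7 and 13.9 CPM in saline. As with Dusp1, 3 of 4 Ang II libraries were below every saline library and Ang II replicate 4 was above them all. The log2 fold change was -0.26 ± 0.21 (SE), and -0.51 without that library. The pigment epithelium covariate brought it to -0.13, and without Ang II replicate 2 it was -0.18.

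Spred1 (ENSMUSG00000027351, chromosome 2, 117121374 to 117182279, plus strand) and Spred2 (ENSMUSG00000045671, chromosome 11, 19924375 to 20024026, plus strand) encode membrane proteins that block the step from Ras to RAF. Spred1 was at 128, 143, 111 and 157 CPM in Ang II and 138, 174 and 87.9 CPM in saline. Spred2 was at 32.0, 30.6, 23.1 and 39.1 CPM in Ang II and 27.3, 41.4 and 25.5 CPM in saline. In both, saline replicate 2 was highest, Ang II replicate 4 was next, and the groups overlapped. The log2 fold changes were 0.01 ± 0.23 (SE) and -0.01 ± 0.20. Adding the pigment epithelium covariate gave 0.62 and 0.44, and without saline replicate 3 they were -0.20 and -0.13. Without Ang II replicate 3 they were 0.11 and 0.12.

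**Figure D3:**
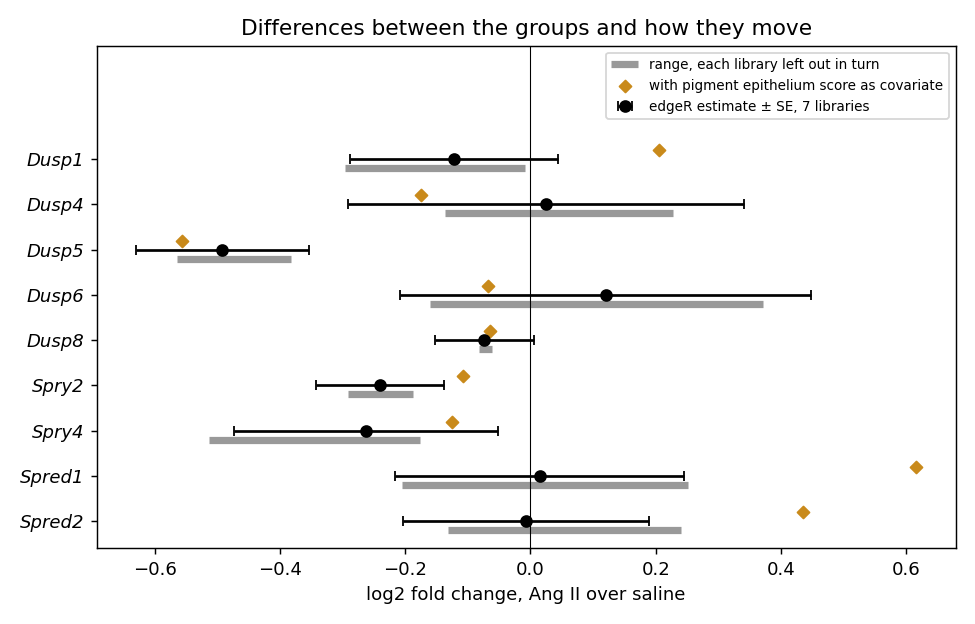
Log2 fold change, Ang II over saline, of each gene from edgeR (black, ± SE), its range with each library left out in turn (grey) and its value when the pigment epithelium covariate is added (diamonds). The values of Dusp5, Dusp8, Spry2 and Spry4 stay below 0 throughout, though the SE bar of Dusp8 reaches past 0. The ranges of Dusp4, Dusp6, Spred1 and Spred2 cross 0, and Dusp1 lies above 0 only with the covariate.

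Markers of other cell types also differed in level between the groups. Rod markers summed to 61968 to 74519 CPM in Ang II and 75172 to 81343 CPM in saline, with 15 of 15 log2 fold changes below 0. Pigment epithelium markers summed to 1651 to 1967 CPM in Ang II and 1097 to 1559 CPM in saline, with 12 of 14 above 0 and 0 of 14 at 0 counts, though this list holds genes that bipolar cells and Müller glia also use. Rpe65, its defining gene, was at 107 to 204 CPM in Ang II and 19.8, 25.9 and 92.0 CPM in saline replicates 1 to 3. Saline replicate 3 thus lay closer to the Ang II libraries than the other saline libraries did. Müller glia markers overlapped between the groups, at 5150 to 6051 CPM and 5347 to 6181 CPM. The part of these lists in the members' differences was not tested. The covariate values given above cannot decide it, because the pigment epithelium markers themselves differed between the groups, with sums that did not overlap. In such bulk samples, fewer cells of a type and less RNA per cell cannot be told apart.

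The order of the libraries differed among the members. Ang II replicate 4 was highest for 4 of 9 members (Dusp1, Dusp4, Dusp6 and Spry4), and Ang II replicate 3 was lowest for 5 of 9 (Dusp1, Dusp4, Dusp5, Spry2 and Spred2). Both are Ang II libraries, and they marked the extremes of the members' summed level, 674 and 519 CPM, with 577 to 656 CPM in the other 5. Saline replicate 2 was highest for Spry2, Spred1 and Spred2 and lowest for Dusp6. In that library Dusp6 was 0.81 below its mean over all libraries on the log2 scale while Egr1, an early response gene driven by ERK, was 3.31 above its own. Etv4 and Etv5, FGF-responsive ERK target genes, were 0.74 and 0.33 above theirs in the same library. Dusp6 was the member that ran most against Egr1. The Pearson correlation with Egr1 over all libraries was -0.52 for Dusp6 and -0.16 for Dusp4. For the other members it ran from 0.18 (Spry4) to 0.82 (Spry2), a description without a test.

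**Figure D4:**
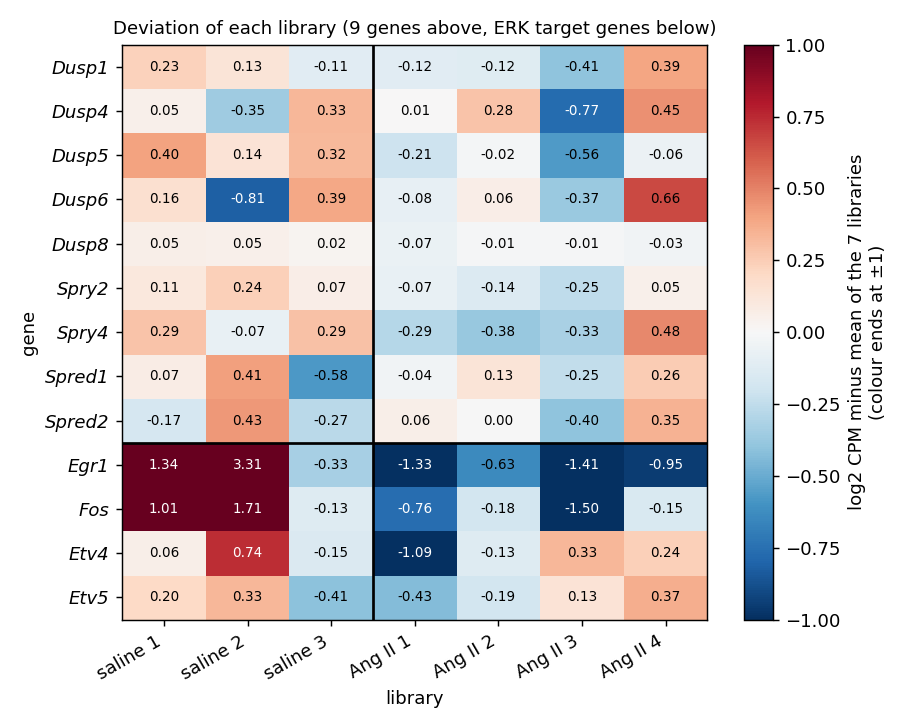
Log2 CPM of each library minus the mean of the 7 libraries, for the 9 genes and, below the line, 4 ERK target genes; red is above and blue below the mean, and the colour ends at 1 in either direction. Saline replicate 2 is red for Egr1, Fos and Etv4 and blue for Dusp6 and Dusp4, and Ang II replicate 3 is below the mean in all 9 genes.

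Over the 36 pairs of members, Pearson correlations of log2 CPM across the 7 libraries ran from -0.28 to 0.83 and 29 were above 0. By exact two-sided permutation tests, 3 pairs had an unadjusted p under 0.05 and 0 passed after Benjamini-Hochberg adjustment over the 36 (smallest adjusted p 0.4286; 0.2143 for Spearman). Spred1 and Spred2 had r = 0.83 (exact permutation p = 0.0202, adjusted 0.4286) and rho = 0.86 (p = 0.0238, adjusted 0.2143). Without the 2 libraries farthest from the median of Spred1, saline replicates 2 and 3, r was 0.85. In each pair the first-named gene alone set which libraries were left out. Dusp4 and Dusp6 had r = 0.81 (exact permutation p = 0.0244, adjusted 0.4286) and rho = 0.93 (p = 0.00675, adjusted 0.2143). Without Ang II replicate 3 and saline replicate 2, r was 0.84. After each group was centred on its own mean, r was 0.83 in both pairs. Dusp5 and Spry2 had r = 0.79 (exact permutation p = 0.0357, adjusted 0.4286) and rho = 0.79 (p = 0.0480, adjusted 0.3457), which dropped to r = 0.40 within centred groups and to 0.56 without Ang II replicate 3 and saline replicate 1. Libraries were permuted across both groups, so a group difference that 2 members share, as in Dusp5 and Spry2, enters r and p. Since the members were chosen with that difference known, the p of this pair tests no link beyond it. These libraries share a tissue and a scaling, so the values describe 7 samples.

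The genes whose levels ran most like a member's were sought among 11226 protein-coding genes with a mean of at least 5 CPM, by Pearson correlation of log2 CPM over the 7 libraries. Being the highest of so many, the values are a description. Dusp4 ran closest to Gfra1, a growth factor receptor gene (r = 0.99), and Dkk3, a secreted protein gene (0.98). Dusp6 ran closest to Add2, a membrane skeleton gene (0.99), and Lhx2, a transcription factor gene (0.98). For Spry2 these were Tmem129 (0.99) and Mmgt2 (0.98), for Spry4 Irx2 (0.99) and Ndrg4 (0.98), for Spred1 the potassium channel gene Kcnc2 (0.99) and Cpeb2 (0.98), and for Spred2 Mex3c (0.98) and Dio2 (0.98). Dusp1 was nearest to Tnfaip8 (0.98) and March4 (0.97), Dusp5 to Ptges3 and Zbed3 (0.97 each), and Dusp8 to Pacs2 (0.97) and Atp5b (0.96).

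Around the members, 100 further genes of the pathway were listed and 94 were tested. With edgeR 0 of 94 passed, 0 higher and 0 lower, and 10 had an unadjusted p under 0.05 (4.62% of all tested genes did). DESeq2 called 3, Fgfr3, Egr1 and Ier2 (0.213% of all genes it tested), and limma-voom called 5, Egr1, Fos, Fgfr2, Fgfr3 and Met (0.831%). The core relay from Grb2 to ERK was listed together with Rps6ka1, Rps6ka2 and Rps6ka3, kinase genes downstream of ERK. This list had a median log2 fold change of -0.01 over 20 genes, 10 of them below 0. Mapk3, which encodes an ERK kinase, was at -0.11 ± 0.09 (SE), and of smallest p were Rps6ka2 (-0.15 ± 0.09), Braf (0.16 ± 0.10) and Rps6ka1 (-0.25 ± 0.16). The other phosphatase genes had 8 of 10 tested below 0 (median -0.06), led by Dusp7 (-0.20 ± 0.09), Dusp14 (-0.25 ± 0.13) and Dusp28 (-0.15 ± 0.11). JNK and p38 kinases and their activators had 8 of 11 below 0 (median -0.08), with Mapk13 at -0.53 ± 0.43, Map2k7 at -0.10 ± 0.09 and Map2k3 at 0.17 ± 0.16.

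Other feedback inhibitors had 9 of 13 below 0 (median -0.07). Rasa1, which speeds Ras back to its inactive form, was at 0.31 ± 0.12 (SE), and Lrig1, which lowers growth factor receptors, at -0.22 ± 0.11. Spry3, the relative of Spry2 and Spry4, held 14.5, 17.2, 11.2 and 18.8 CPM with Ang II but 33.3, 51.1 and 11.0 CPM with saline, a log2 fold change of -1.04 ± 0.52 (edgeR adjusted p = 0.982). Saline replicate 3 was its lowest library and the other 2 saline libraries were its highest. Without saline replicate 3, edgeR called Spry3, with Fgfr2 and Fgfr3, among 117 genes (0.667% of those tested).

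ERK target transcripts had 13 of 22 tested genes below 0 (median -0.03), and 4 with an unadjusted p under 0.05, all lower in Ang II. They were the early response genes Egr1 (17.8 ± 4.57 CPM in 4 Ang II libraries against 93.5, 367 and 29.3 CPM in saline, log2 fold change -3.19 ± 0.90, edgeR adjusted p = 0.982), Fos (-1.61 ± 0.54), Ier2 (-0.96 ± 0.28) and Ier3 (-0.32 ± 0.10). In these 4 every Ang II library lay below every saline library (2.73% of all tested genes). The reverse held in 2 of the list (3.18%), the early response gene Fosb (0.45 ± 0.23) and Etv1 (0.31 ± 0.15). The slower targets Etv4 (-0.34 ± 0.32) and Etv5 (-0.07 ± 0.23) were nearer to 0 than Egr1, Fos and Ier2. Receptors that feed the relay had 13 of 18 above 0 (median 0.08). Fgfr3 averaged 5.74 ± 2.57 CPM (SD, n = 4) with Ang II against 1.60 ± 0.675 CPM (SD, n = 3) with saline. Its log2 fold change was 1.83 ± 0.39 (edgeR adjusted p = 0.540, DESeq2 adjusted p = 0.00364). Erbb2 (-0.70 ± 0.24) and Met (1.23 ± 0.38) followed in that order by p, and Fgfr2, named after its values were seen, was at 1.43 ± 0.55. The Ang II receptor gene Agtr1a was too low to be tested, with 2 to 6 counts in each Ang II library against 6 to 27 with saline, the 27 in saline replicate 2.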

How the data were processed

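The authors deposited whole-number read counts per gene, 1 column per library, without normalization. The submitters' processing notes name featureCounts 1.5.0-p3, HISAT2 2.0.5, CASAVA and the build mm10. Annotation release, strand setting and treatment of reads matching several genes are not given in the sources used here. Of 54532 gene IDs, 54409 were in GENCODE M21, 98.3% of them with the same ends (7 of 9 members).

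Columns were matched by the sample descriptions, 0 were left unmatched, and groups followed the titles. The main test was edgeR 4.0.16 (R 4.3.3; quasi-likelihood with robust dispersion, filterByExpr, TMM, two-sided, Benjamini-Hochberg over all tested genes, threshold 0.05). The SE is the absolute log2 fold change over the root of the F statistic, and a prior count of 2 entered log2 CPM. RPKM used the table's gene lengths. DESeq2 1.42.0, limma 3.58.1 (voom), other scalings and filters, a covariate (mean log2 CPM of 14 pigment epithelium markers), the replicate number and leaving out each library were alternatives. Steps were tested on simulated data.

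The members and lists were chosen with earlier results of these data known. Named are all members, per pathway list the 3 genes of smallest p, genes called by edgeR or DESeq2, Egr1, Fos, Etv4, Etv5, Mapk3, Agtr1a, Apoe, Rpe65 and Gfap, and per member the 2 genes of most similar level; others were named after their values were seen. An item that the rule takes is not reported here. Counting error per member and library averaged 1.54% (Dusp8) to 7.30% (Spry4).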

Additional observations from a re-analysis of the deposited data

Results flagged for a closer look

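Spry4 was at 15.8 CPM in Ang II replicate 4, far from the 8.68 to 9.24 CPM of the other 3 Ang II libraries: the gap made up 0.921 of the group's whole range, above Dixon's 95% limit for 4 samples. Such a limit flags about 1 group in 20 by chance, and 9 members were examined in the Ang II group. Dusp1, Dusp4 and Dusp6 were highest in the same library.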

How the results depend on the processing

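With edgeR, 0 genes were called with RLE scaling, library size alone, a minimum mean of 1 CPM or the pigment epithelium covariate. DESeq2 called 36 genes (3 of the listed pathway genes), limma-voom 142 (5), and edgeR without the low count filter 98 (2). Leaving out each library gave 0 to 117 genes and 0 to 3 listed genes, the calls arising only without saline replicate 3. The cause of these differences was not tested. Both groups have replicates numbered 1 to 3, but same-numbered libraries did not deviate together (r of deviations across genes -0.07, -0.02 and 0.05). No label ties the numbers to animals, so they were not taken as pairs. With the replicate block edgeR called 56 genes and 3 listed genes, and 9 of 9 members lay below 0. Only the Ang II group has a replicate 4, so under the block that library adds nothing to the group difference. The 9 of 9 is therefore not independent of the same count found without Ang II replicate 4.

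The number of members below 0 was 5 to 9 over all alternatives. Dusp5, Dusp8, Spry2 and Spry4 were below 0 in all 15, Dusp1 in 14. The median of all tested genes moved from 0.00 to 0.04 with library size as the scaling. Chosen after seeing the data, other scalings and left-out libraries gave 1 to 5 members whose groups did not overlap, Dusp5 always among them; the 5, with Dusp1 and Spry4 added, were without Ang II replicate 4. The share of all tested genes lying wholly lower ran from 1.31% (library size) to 8.64% (without saline replicate 3), and was 6.73% without Ang II replicate 4. Depth allowed the weakest member, Spry4, 142 to 262 counts per library.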
